A study of Mus musculus with 15 samples.

Results

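Itgam, which encodes the integrin alpha chain CD11b, was followed together with 5 other genes of leukocyte adhesion across 15 libraries of mouse eosinophils: Itgb2, its beta chain partner CD18, Itgax (CD11c), Itgal (CD11a), Itga4 (CD49d) and Pecam1 (CD31). The 6 genes were found by symbol among the 26366 genes of the count table, each as a single row. They were chosen by their measured levels in the 3 tissues, above all the height of Itgam in bone marrow, so differences from bone marrow are described without a test. The mice were wild-type C57/BL6 animals, all of which had 4-NQO, a carcinogen that acts on the mouth and esophagus, for 8 weeks and then propylene glycol for 8 weeks, a course labelled pre-cancer. Esophageal eosinophils (7 libraries, from 4 F and 3 M mice) and colonic eosinophils (4 libraries, from 2 F and 2 M mice) were taken from the lamina propria by immunomagnetic positive selection, and bone marrow-derived eosinophils (4 libraries, from the same 4 mice as colon) were the third group. Mice 5, 6, 7 and 8 gave all 3 tissues and mice 1, 2 and 3 gave esophagus alone. The labels do not say whether the bone marrow-derived cells were isolated or cultured, and no untreated mouse was among the samples. F mice were in cage 1 and M mice in cage 2, so sex and cage cannot be told apart.

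Integrins are adhesion receptors built from an alpha and a beta chain, and neither chain normally reaches the cell surface without the other. CD11a, CD11b and CD11c each pair with CD18 and bind ligands such as ICAM-1, fibrinogen and complement fragments, while CD49d pairs with Itgb1 or Itgb7 and binds VCAM-1, a route of eosinophils into tissue. CD31 is an immunoglobulin-family protein of endothelium, platelets and leukocytes that takes part in passage through the vessel wall.

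The transcripts of these genes differ in a sequence feature that is set beside the values below, the longest uninterrupted run of purines (A and G) or of pyrimidines (C and T). In GENCODE M21 (build GRCm38), matched by stable gene identifier, Itgam holds a purine run of 89 bases in the 3' UTR of its coding transcript, and Pecam1 one of 72 bases at the end of a transcript annotated as a retained intron. A purine run at least as long was found in 0.711% of 26299 genes for Itgam and in 1.23% for Pecam1. Itga4 holds a pyrimidine run of 61 bases in its 3' UTR, and its longest purine run has 39 bases. The longest purine runs of Itgb2, Itgax and Itgal have 12, 14 and 22 bases. The stretches of 30 bases below, each from 5' to 3' on the transcript strand, show the start of the long runs and, for comparison, the whole purine run of Itgb2, which lies in its coding region. Capitals mark the run and lower case its flank.
Itgam (chromosome 7, purine run): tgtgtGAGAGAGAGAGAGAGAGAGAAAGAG
Pecam1 (chromosome 11, purine run): ctgttGAAAGAAGGGAAGGAGGAAAGGAAA
Itga4 (chromosome 2, pyrimidine run): ttctaTTTTCCTTTCCTTTTCCTTTCCTCT
Itgb2 (chromosome 10, purine run): aggcgctttGAGAAGGAGAAActcaagtcc

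All libraries were shallow. Esophagus libraries held 85677 to 371218 counts over 6965 to 19981 detected genes, colon libraries 227179 to 612386 counts over 22284 to 25336 genes, and bone marrow libraries 189060 to 286166 counts over 19020 to 22110 genes. A gene with no count could still have up to 3, equal to 8.08 to 35.02 CPM (the count relative to the library total) for esophagus libraries, 4.90 to 13.2 for colon and 10.5 to 15.9 for bone marrow. Mitochondrial genes took 7.52% of counts in colon of mouse 8, against 0.297% to 1.003% in the other colon libraries, and the esophagus libraries of mice 1 and 3 had 3.87% and 2.84%. Among genes that define eosinophils, those of the granules were close to the limit of detection. No esophagus library had a count of Epx, which encodes eosinophil peroxidase, while colon had 0 to 9 and bone marrow 2 to 5. Counts of Siglecf, an eosinophil surface lectin, were 0 to 9 in esophagus and 2 to 13 in colon, against 0 to 6 in bone marrow. Summed over libraries, the granule gene Prg2 had 10 counts in esophagus and 1 in colon, against 0 in bone marrow. The eotaxin receptor Ccr3 was higher, with 0 to 23 counts in esophagus and 15 to 31 in colon, against 1 to 9 in bone marrow. Likewise Il5ra, the interleukin-5 receptor chain, had 0 to 33 counts in esophagus and 5 to 23 in colon, against 4 to 8 in bone marrow.

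Itgam was among the most abundant genes of every bone marrow library and low in both tissues. In esophagus it had 7 to 23 counts with a median of 12. In colon it had 38, 4, 10 and 8 counts in mice 5, 6, 7 and 8. In bone marrow the same mice gave 3921, 3450, 2695 and 3238 counts, which were 2.07%, 1.82%, 0.942% and 1.31% of all counts of their libraries, so that Itgam ranked between the first and the third gene of each. Every bone marrow library lay above every esophagus and every colon library by more than the SD within any tissue. Mean levels were 95.01 ± 81.0 CPM in esophagus (SD, n = 7) and 30.4 ± 28.5 CPM in colon, against 15373 ± 5076 CPM in bone marrow (SD, n = 4 each). The fitted log2 fold change of Itgam (ENSMUSG00000030786.19) was -7.94 (SE 0.45) for esophagus over bone marrow and -9.20 (SE 0.61) for colon over bone marrow, or -10.0 in colon without the colon library of mouse 5. Within F mice the esophagus and colon values were -8.63 and -9.06, and within M mice they were -7.26 and -9.44. In the annotation 3450 exonic bases of Itgam are shared with Gm49368, a gene on the same strand that has no row in the count table used here. In bulk libraries fewer cells of a type and less RNA per cell cannot be told apart.

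Itgb2 did not share this pattern. Its counts were 0 in 6 of the 7 esophagus libraries and 4 in that of mouse 8. Colon had 6, 1, 11 and 8 counts in mice 5, 6, 7 and 8, and bone marrow had 0, 4, 5 and 3. The tissues overlapped, and no library of any tissue exceeded 21.2 CPM. Means were 2.92 ± 7.73 CPM in esophagus (SD, n = 7) and 12.2 ± 6.32 CPM in colon, against 12.7 ± 9.24 CPM in bone marrow (SD, n = 4 each). Itgb2 (ENSMUSG00000000290.14) was too low to be tested. The ratio of its pooled CPM was 0.231 for esophagus over bone marrow (exact 95% interval 0.0544 to 0.763), 1.03 for colon over bone marrow (0.502 to 2.24) and 0.224 for esophagus over colon (0.0569 to 0.647), where the intervals cover counting error only.

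**Figure D1:**
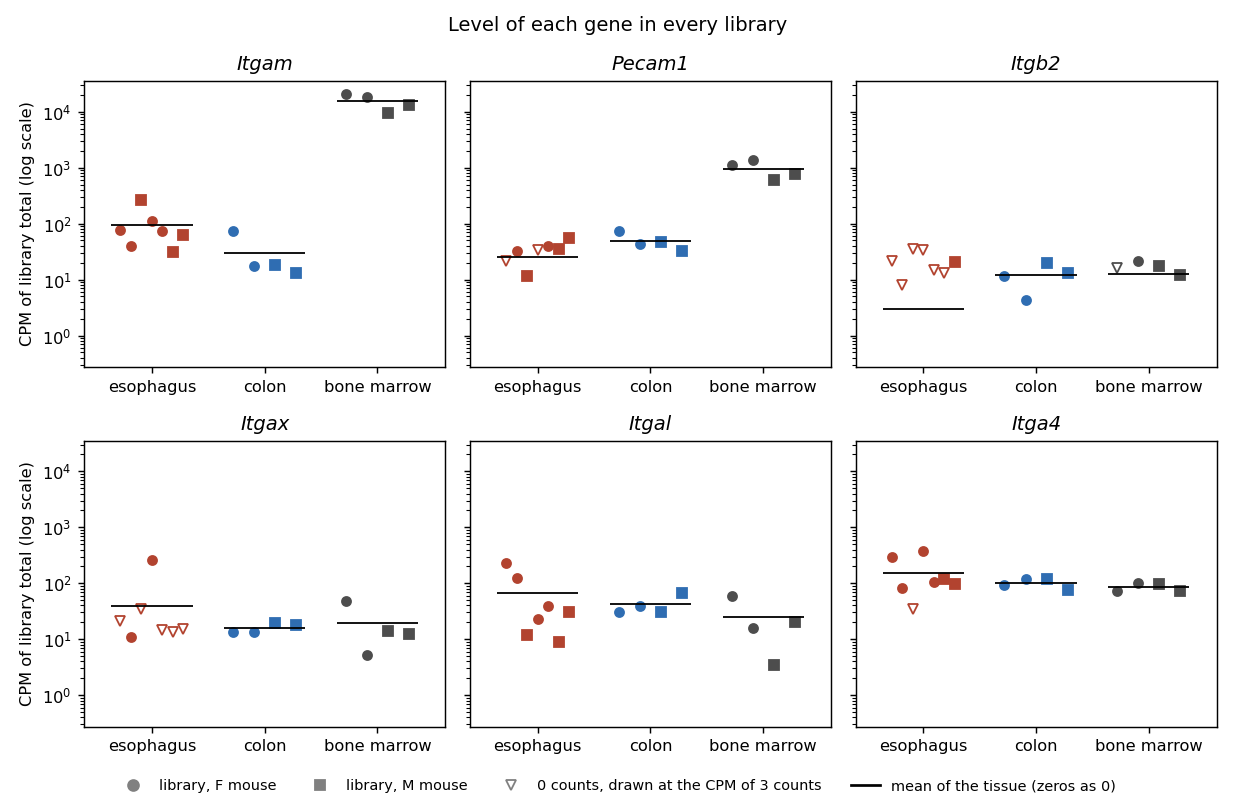
Level of each of the 6 genes in every library, in CPM of the library total on a log axis, by tissue. Circles are libraries of F mice and squares of M mice, open triangles stand for 0 counts and are drawn at the CPM of 3 counts, and lines are tissue means with zeros as 0. Itgam and Pecam1 are far higher in all 4 bone marrow libraries, and the other 4 genes overlap between tissues.

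The alpha chain and its partner were thus on very different scales in bone marrow. Summed over libraries there were 93 Itgam and 4 Itgb2 counts in esophagus, a ratio of 23.2 (exact 95% interval 8.78 to 87.1). Colon had 60 and 26 counts, a ratio of 2.31 (1.43 to 3.81). Bone marrow had 13304 and 12 counts, a ratio of 1109 (634 to 2146). These intervals cover counting error only and leave out the spread between mice. In colon 38 of the 60 Itgam counts came from mouse 5. Per exonic kilobase the ratios were 14.1 in esophagus and 1.40 in colon, against 673 in bone marrow. The bone marrow library of mouse 5 had 3921 Itgam counts and no Itgb2 count, a ratio of at least 1307 against a floor of 3 counts, and those of mice 6, 7 and 8 gave 862.5, 539 and 1079. In colon the ratio was 6.33 in mouse 5, 4.0 in mouse 6, 0.909 in mouse 7 and 1.0 in mouse 8. The mean log2 ratio, with 0.5 added to each count, was 4.25 ± 1.33 in esophagus (SD, n = 7) and 1.01 ± 1.30 in colon, against 10.3 ± 1.78 in bone marrow (SD, n = 4 each).

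Esophagus libraries had no Itgb2 count in 6 of 7 cases, so that against the floor of 3 counts their ratios were at least 3.67, 5, 7.67, 3.33, 5 and 2.33 in mice 1, 2, 3, 5, 6 and 7, and 3 in mouse 8. These bounds overlap the colon ratios. Only the comparison of esophagus with colon was tested for this ratio. The genes were chosen with their levels in all 3 tissues known, so the p-values below do not stand as independent support. With 0.5 added to each count, the mean was higher in esophagus by 3.25 on the log2 scale (exact two-sided permutation test over 330 arrangements of the 11 libraries, p = 0.0182). The size of this difference rests on the added count, and with 1 added it was 2.51 (exact permutation test, p = 0.0121). Where Itgb2 had no count, the ratio was set by the Itgam count and the added count alone. Esophagus libraries were also shallower, with 85677 to 371218 counts against 227179 to 612386 in colon. Without the colon library of mouse 7 or mouse 8 the difference was 2.87 or 2.91, each with p = 0.05 in the exact permutation test. The 330 arrangements took no account of mice 5 to 8 having given both tissues. Taken within those mice as pairs, the difference was 2.68, with an exact permutation p = 0.125, the smallest that 4 pairs allow.

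The density reached in the same libraries by genes that act in the nose gives these values a scale. Pooled over 1099 autosomal genes, the olfactory receptors of the nose gave 1.09 to 4.98 counts per exonic kilobase in esophagus libraries, 4.11 to 8.06 in colon libraries and 2.07 to 3.68 in bone marrow libraries. The median autosomal coding gene had 0 to 2.69, 1.60 to 4.75 and 0.998 to 2.14 counts per kilobase in the same order. It was below the olfactory density in every library, so most coding genes were too. Itgb2 was below the olfactory density in all 15 libraries, with at most 3.60 counts per kilobase, and above the median coding gene in 2. Itgam was above the olfactory density in 4 of 7 esophagus, 0 of 4 colon and 4 of 4 bone marrow libraries. It was above the median coding gene in 7 of 7, 1 of 4 and 4 of 4. In bone marrow Itgam had 662 ± 101 counts per kilobase (SD, n = 4). In tissue Itgam had 2.64 ± 1.02 counts per kilobase in esophagus (SD, n = 7) and 2.99 ± 3.09 in colon (SD, n = 4). Counts per kilobase are not scaled to depth, so they compare genes within a library and not levels between tissues. Itgax was above the olfactory density in 1 library, Itgal and Itga4 in 2 each, all from esophagus, and Pecam1 in the 4 bone marrow libraries.

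**Figure D2:**
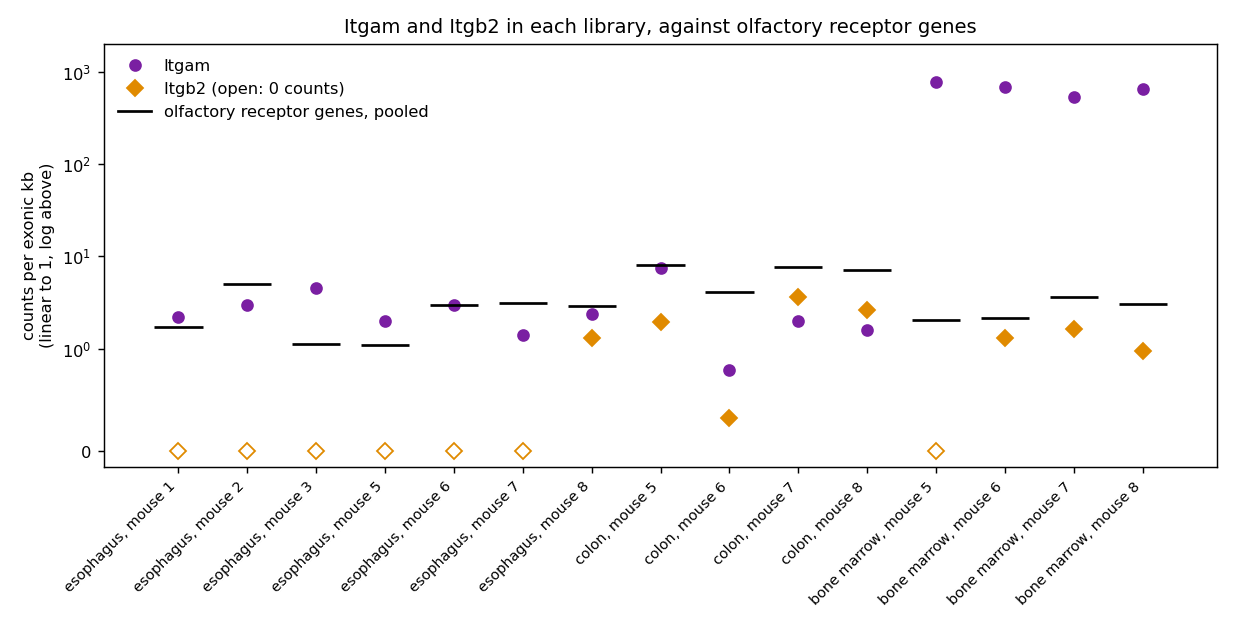
Counts per exonic kilobase of Itgam (circles) and Itgb2 (diamonds, open at 0 counts) in each library, with the pooled density of olfactory receptor genes in the same library as a black line; the axis is linear up to 1 and logarithmic above. Itgb2 lies below the line in all 15 libraries, and Itgam lies far above it in the 4 bone marrow libraries. The median coding gene, which is not drawn, lies below the line in every library as well.

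The other alpha chains did not follow Itgam. Itgax, the CD11c chain whose gene neighbours Itgam on chromosome 7, had 0 counts in 5 of 7 esophagus libraries, 4 in mouse 2 and 23 in mouse 5. It had 7, 3, 11 and 11 counts in colon and 9, 1, 4 and 3 in bone marrow of mice 5, 6, 7 and 8. A single esophagus library was high, and the tissues overlapped. Itgax was too low to be tested. Its pooled CPM ratio was 1.10 for esophagus over bone marrow (exact 95% interval 0.579 to 2.16) and 0.896 for colon over bone marrow (0.483 to 1.72).

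Itgal, the CD11a chain of LFA-1, ranged from 1 to 46 counts in esophagus, with a median of 6 and the highest values, 46 and 32, in mice 2 and 1. It had 16, 9, 17 and 41 counts in colon and 11, 3, 1 and 5 in bone marrow of mice 5, 6, 7 and 8. All 3 tissues overlapped in CPM. Means were 66.1 ± 80.6 CPM in esophagus (SD, n = 7) and 42.0 ± 17.2 CPM in colon, against 24.4 ± 23.5 CPM in bone marrow (SD, n = 4 each). The log2 fold changes of Itgal (ENSMUSG00000030830.19), 1.02 (SE 1.0) for esophagus and 0.64 (SE 1.08) for colon over bone marrow, were about as large as their errors. With mouse as a replicate block the esophagus value was -0.10, and without the bone marrow library of mouse 5 the esophagus and colon values were 1.88 and 1.56.

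Itga4, the alpha chain that binds VCAM-1 with Itgb1 or Itgb7, had 0 to 42 counts in esophagus with a median of 27, and the 0 was in mouse 3, the shallowest library. Colon had 49, 27, 67 and 47 counts and bone marrow 14, 19, 28 and 18 in mice 5, 6, 7 and 8. Means were 153 ± 131 CPM in esophagus (SD, n = 7) and 103 ± 21.0 CPM in colon, against 86.3 ± 14.9 CPM in bone marrow (SD, n = 4 each), and the tissues overlapped. The log2 fold changes of Itga4 (ENSMUSG00000027009.19) were 0.38 (SE 0.67) for esophagus and 0.05 (SE 0.74) for colon over bone marrow. In the annotation 1124 exonic bases of Itga4 overlap Cerkl on the other strand, which had 0 to 32, 9 to 30 and 1 to 17 counts in esophagus, colon and bone marrow, and whether counting used strand is not stated.

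Pecam1 resembled Itgam on a smaller scale. It had 0 to 12 counts in esophagus with a median of 8 and with 0 in mice 1 and 5. Colon had 39, 10, 26 and 20 counts in mice 5, 6, 7 and 8, against 212, 259, 171 and 189 in bone marrow of the same mice. Every bone marrow library lay above every esophagus and colon library. Means were 25.0 ± 21.5 CPM in esophagus (SD, n = 7) and 49.6 ± 18.0 CPM in colon, against 963 ± 348 CPM in bone marrow (SD, n = 4 each). The log2 fold change of Pecam1 (ENSMUSG00000020717.20) was -5.49 (SE 0.50) for esophagus and -4.51 (SE 0.59) for colon over bone marrow. Within F mice these were -6.35 and -4.74, and within M mice -4.55 and -4.06. In bone marrow Pecam1 had 33.4 ± 6.11 counts per kilobase (SD, n = 4), against 662 for Itgam.

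**Figure D3:**
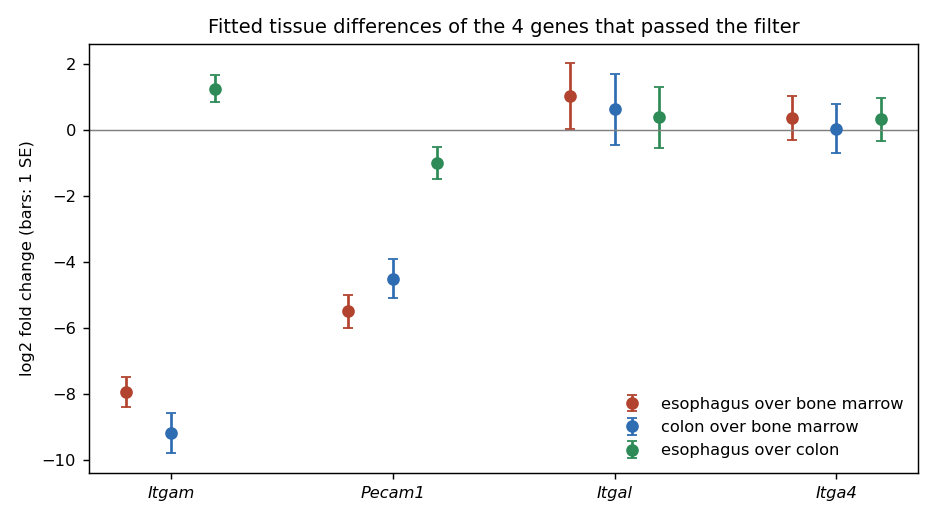
Fitted log2 fold changes of the 4 genes that passed the filter, with bars of 1 SE, for esophagus over bone marrow, colon over bone marrow and esophagus over colon. Itgam and Pecam1 are far below 0 in both comparisons with bone marrow. The largest value of Itgal and Itga4 is 1.02 (SE 1.0), for Itgal in esophagus over bone marrow.

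Of the 10357 genes tested, edgeR's quasi-likelihood test called 84 lower (0.811%) and 2 higher (0.0193%) in esophagus than in bone marrow, and 45 lower (0.434%) and 0 higher (0%) in colon. Itgam and Pecam1 are among the lower genes of both comparisons and Itgal and Itga4 are in neither, which is given as a description because the choice of genes used these comparisons. Bone marrow libraries lay wholly above the esophagus libraries for 115 of the tested genes (1.11%) and wholly above the colon libraries for 248 (2.39%). Both comparisons share the bone marrow libraries.

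Esophagus and colon were compared by test, since bone marrow values are on neither side of that difference. The bone marrow libraries still entered the filter, the scaling and the spread of the shared fit. Levels in both tissues were also known when the genes were chosen. Neither Itgam, Itgal nor Itga4 was called, where edgeR called 7 genes higher (0.0676%) and 2 lower (0.0193%) among all tested. Itgam was 1.25 higher in esophagus on the log2 scale (SE 0.42), with an edgeR adjusted p of 0.762 and an unadjusted p of 0.00346. Esophagus and colon libraries overlapped in CPM, through the colon library of mouse 5; esophagus lay wholly above colon for 8 of the tested genes (0.0772%) and wholly below it for 68 (0.657%). Within mice 5, 6, 7 and 8 Itgam was higher in esophagus in each, by 0.56, 1.61, 0.54 and 1.63 in log2(CPM + 10), and the edgeR fit with mouse as a replicate block gave 1.14 with an adjusted p of 0.853. Without the colon library of mouse 5 the Itgam difference was 2.06 and the edgeR adjusted p 0.0181, the only such call among the 15 libraries left out in turn, over which the adjusted p reached 0.9999. Itgal was at 0.39 (SE 0.94) and Itga4 at 0.33 (SE 0.66), with edgeR adjusted p of 0.9999 for each. Itgal passed the filter narrowly, with the bone marrow library of mouse 5 among those it needed. It dropped out of the fit without the esophagus library of mouse 1 or mouse 2. Pecam1 passed the filter only through its bone marrow level, and its value of -0.98 (SE 0.49) is given without a test. With a replicate block for mouse, Itgal was at -1.003, of the other sign.

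The difference between F and M mice was not part of the choice of genes and was tested in the 7 esophagus libraries, one from each mouse. Only Itgam and Itga4 were abundant enough there, among 7028 genes, of which edgeR called 2 higher (0.0285%) and 1 lower (0.0142%) in F mice. Itgam averaged 76.1 CPM in F and 120 CPM in M mice, and Itga4 213 CPM in F and 72.0 CPM in M mice. Neither difference was called, with log2 values of F over M of -0.38 (SE 1.51) for Itgam and 1.33 (SE 1.10) for Itga4 and edgeR adjusted p of 0.9998 for both. Without the esophagus library of mouse 3 the Itgam value was 0.55. With limma voom over all libraries, Itgam was at 1.06 and was called. That fit includes the bone marrow values on which the genes were chosen.

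Values in bone marrow, on which the genes were chosen, are given without a test. Itgam had 20709 and 18248 CPM in the F mice 5 and 6, against 9418 and 13118 CPM in the M mice 7 and 8. Pecam1 had 1120 and 1370 CPM in those F mice, against 598 and 766 CPM in the M mice. For both genes the F libraries lay above the M libraries, but there were only 2 libraries of each sex. How many other genes separate in this way was not counted, so no difference between F and M mice is read from these values. In colon, Itgam had 73.1 and 17.6 CPM in F mice and 18.0 and 13.1 CPM in M mice, and these overlapped.

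The genes whose levels ran most like Itgam were found by Pearson's correlation of log2 CPM over the 15 libraries, which share their tissue grouping, their depth and the 4 bone marrow libraries. Among the 10 highest were Trim12c (0.983), Pycr1 (0.944), Tbata (0.944), Gm4034 (0.937), Gm2244 (0.936), Gm19087 (0.931), AA465934 (0.928), Tor1aip1 (0.926) and Cenpc1 (0.925). Trim12c, of the TRIM family, had 183 ± 202 CPM in esophagus (SD, n = 7) and 73.7 ± 68.4 CPM in colon, against 17007 ± 11620.5 CPM in bone marrow (SD, n = 4 each). Pecam1 ranked 26 of 10356 genes (r = 0.85), while Itga4 ranked 7477 (r = -0.05) and Itgal 9683 (r = -0.27). By Spearman's correlation 2 of these 10 genes stayed among the highest 10.

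Long purine or pyrimidine runs were frequent among the genes that moved like Itgam. Taking the longer of the 2 kinds of run, the 10 genes had runs of 35 to 141 bases. Of the tested genes with a match in the annotation, 20.5% had a run of at least 35 bases, a limit set by these same 10 genes. The length of 50 bases used next was chosen after the values were seen. Of the 10 genes, 2 held a purine run of at least 50 bases, 3 a pyrimidine run that long and 5 neither. Among tested genes with a match in the annotation, 11.4% held a run of either kind that long. Of the 84 genes lower in esophagus than in bone marrow, 29 (34.5%) held a purine run of at least 50 bases, as Itgam and Pecam1 do, and 24 (28.6%) a pyrimidine run, against 5.06% and 6.75% of the tested genes with a match in the annotation. Of the 45 genes lower in colon, 17 (37.8%) held such a purine run and 11 (24.4%) a pyrimidine run. Of the 523 tested genes with a purine run that long, 29 were called lower in esophagus and 17 in colon. The 523 genes had a median log2 fold change of -0.51 for esophagus over bone marrow and -0.24 for colon, against -0.18 and 0.02 over all tested genes. Itga4, with its pyrimidine run of 61 bases, had log2 fold changes near 0 in both comparisons. The part of these runs in the counts was not tested.

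**Figure D4:**
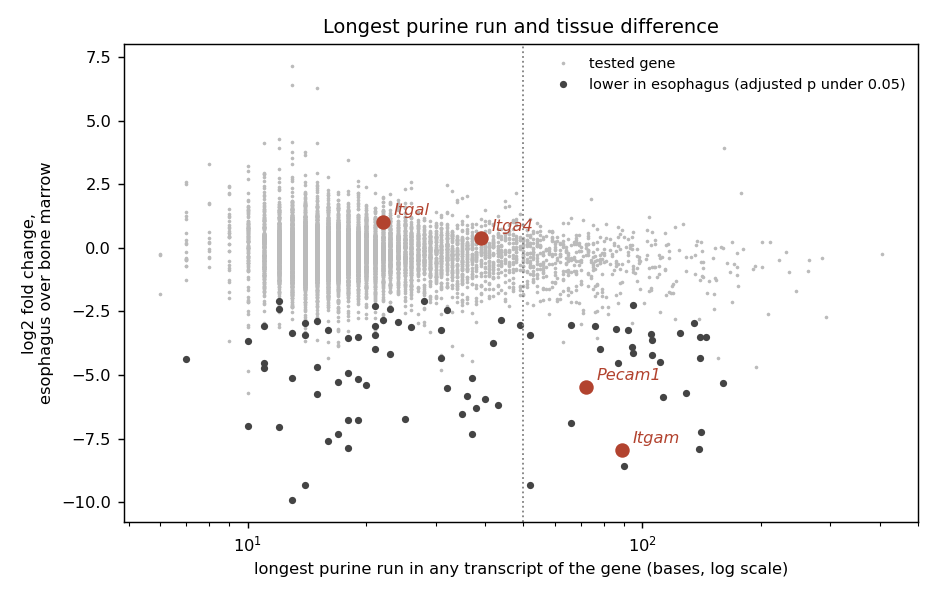
Longest purine run in any transcript of a gene (bases, log axis) against the log2 fold change of esophagus over bone marrow, for tested genes (grey) and those called lower by edgeR (dark), with the dotted line at 50 bases. Itgam, at 89 bases, and Pecam1, at 72, lie far below 0. Itgal and Itga4, with shorter purine runs, lie at log2 fold changes of 1.02 and 0.38.

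Other genes of the adhesion machinery, such as further integrin chains, linkers and ligands, were described from lists. Of 86 listed genes, 85 were in the table and 42 passed the filter. EdgeR called none of them in any of the 3 tissue comparisons, with 1 higher and 1 lower at an unadjusted p under 0.05 for esophagus over bone marrow, 0 and 1 for colon over bone marrow, and 1 and 2 for esophagus over colon. Over all tested genes that limit was passed by 0.686% higher and 3.9% lower, by 0.512% and 1.6%, and by 0.579% and 2.08% in these comparisons. DESeq2 called 0, 1 and 0. The median log2 fold change of the 42 genes was -0.20, -0.05 and -0.10 in these comparisons, against -0.18, 0.02 and -0.21 over all tested genes.

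The gene of each list with the highest mean over all 15 libraries is described here, although in a single tissue others can be higher, such as Itgav, Ptk2 and Ptpn11. Among the other alpha chains (8 of 14 tested) that was Itga1, a collagen-binding chain, with 160 ± 109 CPM in esophagus (SD, n = 7) and 165 ± 29.9 CPM in colon, against 120 ± 49.0 CPM in bone marrow (SD, n = 4 each). Among the other beta chains (3 of 7 tested), Itgb8, which activates latent TGF-beta with Itgav, had 67.0 ± 41.7, 206 ± 51.4 and 77.6 ± 20.4 CPM in the same order. Its log2 value of -1.87 (SE 0.65) for esophagus over colon had an edgeR adjusted p of 0.820. Skap2, an adaptor of integrin signalling, stood for the activation and linkage list (17 of 30 tested) with 234 ± 170, 147 ± 29.1 and 103 ± 60.2 CPM. Vcam1, the ligand of Itga4, stood for the ligands (6 of 17 tested) with 209 ± 110, 191 ± 49.5 and 221 ± 22.1 CPM, and Inpp5d, a phosphatase recruited by inhibitory receptors, stood for the Pecam1 signalling list (2 of 5 tested) with 69.5 ± 54.2, 49.4 ± 14.7 and 67.5 ± 17.1 CPM.

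Cd47, an integrin-associated protein and by the same mean the most abundant gene of the rolling and transmigration list (6 of 13 tested), came nearest to a call. It had 122 ± 157 CPM in esophagus (SD, n = 7) and 58.0 ± 8.42 CPM in colon, against 499 ± 279 CPM in bone marrow (SD, n = 4 each). Its log2 fold changes were -2.57 (SE 0.69, edgeR adjusted p = 0.109) for esophagus and -3.34 (SE 0.86, edgeR adjusted p = 0.128) for colon over bone marrow. Leaving out 1 library brought both values past the threshold for 11 of the 15 libraries, and a replicate block for mouse gave adjusted p of 0.00147 and 0.00449. Without the filter the adjusted p was 0.000398 and 0.0014. Cd47 holds a pyrimidine run of 167 bases.

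Summed markers of cells that carry CD11b or CD31 overlapped between tissues. The 9 endothelial markers summed to 207 to 595 CPM in esophagus, 261 to 394 CPM in colon and 185 to 417 CPM in bone marrow, with none at 0 throughout a tissue. The 10 neutrophil markers in the table summed to 56.5 to 490 CPM in esophagus, 68.6 to 155 CPM in colon and 97.8 to 217 CPM in bone marrow. S100a8 and S100a9, which encode the most abundant neutrophil proteins, had at most 7 counts each in any bone marrow library. Their highest counts were 14 and 17 in esophagus and 5 and 2 in colon. Of the same list, Cxcr2 had 2 to 23 and Ltf 1 to 11 counts in bone marrow. Cxcr2 had 0 to 15 counts in esophagus and 10 to 31 in colon, and Ltf 0 to 13 and 4 to 15. Monocyte markers (6 genes) summed to 242 to 708, 216 to 400 and 143 to 354 CPM, macrophage markers (9 genes) to 137 to 487, 180 to 227 and 147 to 203 CPM, and megakaryocyte and platelet markers (6 genes) to 129 to 665, 76.7 to 148 and 55.9 to 222 CPM, in esophagus, colon and bone marrow. The 12 eosinophil markers summed to 113 to 479, 146 to 207 and 83.9 to 164 CPM, with Epx and Ear2 at 0 throughout esophagus and Prg2 and Prg3 at 0 throughout bone marrow. In esophagus Gp9 of the platelet list was at 0 throughout. The other lists overlapped as well, with sums of 0 to 676 CPM in esophagus, 220 to 313 CPM in colon and 159 to 285 CPM in bone marrow for dendritic cells, 0 to 250.5, 121 to 191 and 100.4 to 190 CPM for T and NK cells, 49.4 to 385, 180.0 to 238 and 84.5 to 241 CPM for B and plasma cells, and 0 to 387, 276 to 462 and 185 to 321 CPM for fibroblasts. Mast cell and basophil markers gave 0 to 108, 68.4 to 115 and 47.6 to 129 CPM, erythroid markers 0 to 124, 16.2 to 39.6 and 10.6 to 42.3 CPM, squamous markers 0 to 187, 9.80 to 55.8 and 20.3 to 106 CPM, and colon epithelium markers 0 to 207, 39.6 to 1181 and 47.5 to 153 CPM.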

How the data were processed

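Gene expression was measured by RNA sequencing of 15 eosinophil libraries of 7 mice. Per the labels' protocols, total RNA went through Ovation RNA-Seq System V2 amplification and an NEB library kit. The deposited values are raw counts per gene, made by the authors, in one table. The submitters' processing notes list limma 3.50.3 without saying its use, and the sources used here give no aligner, counter, build or strand setting. Gene class, exonic length and runs came from GENCODE M21, which matched 26299 of 26366 genes (99.75%) by stable identifier, 11 of them with the same version, so no coordinates are given. Reads of Itgam may be shared with Gm49368, a gene annotated over its exons on the same strand, which has no row in the count table used here.

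The filter was filterByExpr with a count minimum of 10 and a total of 15, leaving 10357 genes. These were scaled by TMM and fitted with edgeR 4.0.16 (quasi-likelihood, robust) in R 4.3.3 over all libraries. SE is from the F statistic, and a call is an adjusted p (Benjamini-Hochberg, every tested gene) under 0.05. limma 3.58.1 and DESeq2 1.42.0 served as alternatives, and Python 3.11.15 with scipy 1.17.1 for exact tests. Levels are CPM of the library total without a scaling factor. Exact 95% intervals are Clopper-Pearson. Like the floors, they cover counting error alone, and leave out the spread between mice and the copying of molecules by amplification. The fit was tested on simulated data.

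The labels give each library's mouse, which pairs the tissues. Deviations from the tissue means correlated at -0.0198 to 0.0368 over the 12 same-mouse pairs and at -0.0623 to 0.0698 over the 60 others. The genes and lists were chosen with earlier results of these data known. The 6 genes are named always, listed adhesion genes when called or, where a list has no call, the one with the highest mean CPM over all libraries, and the 10 genes most like Itgam (log2 CPM, prior count 2). One of these 10 is not reported here. All marker lists fixed are those of eosinophils, neutrophils, macrophages, monocytes, dendritic cells, T and NK cells, B and plasma cells, endothelium, megakaryocytes and platelets, mast cells and basophils, erythroid cells, squamous epithelium, colon epithelium and fibroblasts.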

Additional observations from a re-analysis of the deposited data

Results flagged for a closer look

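A single library stood far from the others of its tissue in 5 of 21 sets of values. The measure was the share of the whole range that separated it from its nearest neighbour. For normally spread values chance would flag about 1 in 20 sets. Low counts with zeros are not spread so, and the flags of Itgb2 and of the ratio share a library. No excess is therefore read from the 5. Itgam had 268 CPM (23 counts) in the esophagus library of mouse 3, the shallowest one, and 73.1 CPM (38 counts) in the colon library of mouse 5. Itgb2 had 20.4 CPM (4 counts) in the esophagus library of mouse 8, the only esophagus library with a count, and the log2 ratio of Itgam to Itgb2 was accordingly lowest there, at 1.47. Itgax had 258 CPM (23 counts) in the esophagus library of mouse 5, against 0 or 4 counts in the other 6 esophagus libraries. No such library was found in bone marrow for any of the 6 genes.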

How the results depend on the processing

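The low differences of Itgam and Pecam1 from bone marrow kept their direction under every alternative tried, with Itgam at -8.63 to -7.26 in esophagus and -10.0 to -8.89 in colon (-10.0 to -8.96 over the libraries left out). Leaving out 1 library moved Itgam for esophagus over colon between 0.90 and 2.06 and the log2 ratio of Itgam to Itgb2 for esophagus over colon between 2.87 and 3.77, and within mouse as a replicate block the ratio difference was 2.68. Signs turned for Itgal in esophagus over colon with the replicate block (-1.003), for Itga4 in esophagus over colon within M mice (-0.67), and for Itgam in F over M mice without the esophagus library of mouse 3 (0.55, where leaving out 1 library gave -0.76 to 0.55) or with limma voom over all libraries, bone marrow included (1.06). Against bone marrow they turned for Itgal in esophagus with the replicate block (-0.10) and in colon within F mice (-0.42), and for Itga4 in esophagus within M mice (-0.45), while Itga4 in colon was near 0 throughout, at -0.09 to 0.28. The causes were not tested.

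Counts of calls depended on the settings. Without the filter, 8 genes were higher in esophagus than in bone marrow and 145 were lower, 12 higher in colon, 15 higher and 82 lower in esophagus than in colon, and 1 adhesion gene, Cd47, was called in each comparison with bone marrow. DESeq2 gave 8 higher in esophagus, 81 lower in colon with 1 adhesion gene, and 11 higher and 0 lower in esophagus than in colon, and its size factors 1 lower there. Library size alone gave 5 higher in esophagus and 1 in colon. The replicate block gave 1 higher and 79 lower in colon, 2 higher in esophagus than in colon, and 1 adhesion gene in each comparison with bone marrow. Leaving out 1 library gave 0 to 7 higher in esophagus, 0 to 19 higher and 42 to 74 lower in colon (74 without bone marrow of mouse 7), 1 to 14 higher and 0 to 22 lower in esophagus than in colon, and 0 to 1 adhesion genes in each comparison with bone marrow. For F over M, limma voom over all libraries, bone marrow included, called 44 higher and 7 lower. Among the higher were 2 of the 6 genes, Itgam (1.06) and Pecam1 (1.16). In esophagus alone DESeq2 called 1 and 3, and leaving out 1 library gave 0 to 3 and 1 to 2. Spearman's correlation kept 2 of the 10 genes most like Itgam. Within F or M mice, differences were chosen after seeing the data. Depth limits Itgb2 and Itgax, which had too few counts to be tested.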
